A study of Homo sapiens with 28 samples.

Results

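FAM107B, CD200, SEPT3 (now SEPTIN3), RNF24, REEP5, PTGFRN, ISG20L2 and PIP4K2A are 8 protein-coding genes of the 30887 in the table. They were chosen by their log2 change against a scrambled control, since each was called higher under 4 microRNA mimics, miR-99b-5p and miR-380-3p, and likewise miR-485-3p and miR-100-3p. Each symbol matched 1 row, and all 8 genes were among the 15058 that passed a filter on low counts. The differences that chose them are given below as a description, and an adjusted p-value printed for them restates the choice and is no separate test.

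Kelly is an established neuroblastoma line with an amplified MYCN gene, and its messenger RNA was sequenced 48 h after transfection. Each well received 25 nM of a single synthetic small RNA: a mimic of miR-99b-5p or miR-380-3p, of miR-485-3p or miR-100-3p, or of miR-1915-3p or else miR-1283, or the scrambled control. Every group has 4 libraries, 28 in all, and every group comes from this 1 line and received the same transfection reagent. Replicates 1 and 4 of miR-1915-3p have a further number at the end of their sample names, unexplained in the labels. The labels leave unsaid whether the 4 were grown as separate cultures, so p-values measure the spread between these libraries, and in bulk RNA fewer cells of a type and less RNA per cell cannot be told apart.

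A microRNA guides an Argonaute protein to messenger RNAs, mostly through its seed, bases 2 to 8, which pairs with sites in the 3′ UTR. Messages paired this way are usually repressed, so a mimic is expected to lower the messages that hold its site, while messages that rise are not read as its targets from this pairing. Small RNAs brought into a cell also share Argonaute with the microRNAs already there. The 8 genes code for unrelated proteins: 2 immunoglobulin-family surface proteins (CD200, PTGFRN), 2 proteins of internal membranes (REEP5, RNF24), a septin (SEPT3), a small heat-shock-induced protein (FAM107B), a lipid kinase (PIP4K2A) and a nuclear exonuclease (ISG20L2).

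The 6 mature sequences, from RefSeq on GRCh38.p14, are shown because the mimics are distinguished by their seeds, which stand in capitals. The sequence of the synthetic strands and of the scrambled control is not given in the sources used here.
miR-99b-5p: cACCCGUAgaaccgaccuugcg
miR-380-3p: uAUGUAAUaugguccacaucuu
miR-485-3p: gUCAUACAcggcucuccucucu
miR-100-3p: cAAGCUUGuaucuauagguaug
miR-1915-3p: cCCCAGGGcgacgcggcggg
miR-1283: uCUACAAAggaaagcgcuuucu
No 2 of the 6 seeds are alike, and so the 4 mimics under which the genes were higher than the control have no seed in common. In the same table miR-380-3p (chr14:101025056-101025077, + strand) and miR-485-3p (chr14:101055464-101055485, + strand) lie near each other on chromosome 14, miR-99b-5p lies on chromosome 19 and miR-100-3p on chromosome 11. miR-100-3p is the arm opposite to miR-100-5p, which belongs to the same family as miR-99b-5p.

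The heptamer that pairs with a seed was looked for on the sense strand of the longest 3′ UTR that GENCODE v29 (GRCh38) gives a gene. Under the 4 mimics that chose the genes, 2 of 8 genes held a match to 1 of them each. Those 2 sites are shown with the heptamer in capitals, together with the site for miR-1283 in CD200 and the first of 3 for miR-1915-3p in RNF24, and the coordinates are those of the heptamer.
FAM107B, miR-100-3p match, chr10:14520144-14520150 (-): tcattagaatcCAAGCTTtgaaaatttct
REEP5, miR-380-3p match, chr5:112877766-112877772 (-): gtccacctctgATTACATgtatgttcttg
CD200, miR-1283 match, chr3:112362771-112362777 (+): tgtttcttataTTTGTAGtaaaatattga
RNF24, miR-1915-3p match, chr20:3930890-3930896 (-): gggcaggtggcCCCTGGGaaggtctgagc
No UTR of the 8 held a match to miR-99b-5p, found in 1.51% of the 12664 tested genes with a UTR of at least 50 bases, or to miR-485-3p, found in 15.3%. A match to miR-380-3p stood in REEP5 only (15.7% of tested genes) and a match to miR-100-3p in FAM107B only (11.7%). For the remaining mimics, RNF24 held 3 matches to miR-1915-3p (25.7%) and 3 to miR-1283, to which CD200 and REEP5 held 1 match each (21.1%). Among the 7105 tested genes with a UTR at least as long as the shortest of the 8, the shares were 2.28% for miR-99b-5p, 24.2% for miR-380-3p, 23.5% for miR-485-3p, 17.7% for miR-100-3p, 33.1% for miR-1915-3p and 32.2% for miR-1283.

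Libraries held 10.99 M to 23.3 M expected counts, and the 8 genes had between 147 (CD200) and 5932 (SEPT3) counts in a library. Levels are given as CPM, counts relative to library size after TMM scaling, with factors that ran from 0.948 to 1.03. The neuroblastoma markers PHOX2A, HAND2, GATA3, TH, DBH, MYCN and ISL1 had counts in every library. The leukocyte marker CD14 averaged 0.111 CPM and was at 0 in 7 of 28 libraries, the endothelial markers summed to 0.749 to 3.98 CPM and the epithelial ones to 1.30 to 3.74 CPM. Fibroblast markers summed to 57.5 to 93.6 CPM, of which PDGFRB made up most and COL1A2 had counts in 1 of 28 libraries. Mitochondrial transcripts took 6.16% to 13.6% of the counts. In each library, the log2 CPM of the genes minus their mean over the 28 libraries was fitted on transcript GC as a fraction. The slope ran from -2.16 in miR-99b-5p replicate 2 to 3.04 in miR-485-3p replicate 2. The part of these differences in the results was not tested, except where a value with the GC slope as a covariate, or without those libraries, is given. Exons of 5 of the genes overlap those of another gene in GENCODE v29: CD200 with AC112487.1 on the same strand, and RNF24 with PANK2, REEP5 with SRP19 and ZRSR2P1, ISG20L2 with RRNAD1 and SEPT3 with Z99716.1 on the opposite strand. The library kit keeps the strand, but whether counting used it is not stated, so reads from the shared stretches cannot be told apart.

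All 8 genes had a log2 change above 0 under each of the 4 mimics, which the choice fixes. Genes with an adjusted p under 0.05 in edgeR's quasi-likelihood test are said to be called. Of the tested genes 8.11% were called higher under miR-99b-5p, 5.6% under miR-380-3p, 10.5% under miR-485-3p and 2.9% under miR-100-3p. In all, 11 genes (0.0731%) were called higher under all 4, these 8 and PTENP1, TRIB1 and NEFM, which were not in the choice. The changes of the 8 were small. Their median log2 change was 0.30 under miR-99b-5p, 0.31 under miR-380-3p, 0.39 under miR-485-3p and 0.29 under miR-100-3p, beside medians over all tested genes of 0.00, 0.00, 0.02 and -0.01 in the same order. Every one of the 8 had all 4 libraries above all 4 controls under each of the 4 mimics, as 12.4% of tested genes did under miR-99b-5p, 9.56% under miR-380-3p, 9.67% under miR-485-3p and 6.41% under miR-100-3p. The choice used these same libraries and favours such separation, so the contrast with those shares is no separate result. Nearest the threshold on the inner side were REEP5, PIP4K2A and FAM107B, with a highest adjusted p over the 4 mimics of 0.0268, 0.0315 and 0.048. Just outside it were LRCH1 (0.0509) and KPNA3 (0.0522). The 6 comparisons with the control share its 4 libraries, so that a low or high control value enters all of them.

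**Figure D1:**
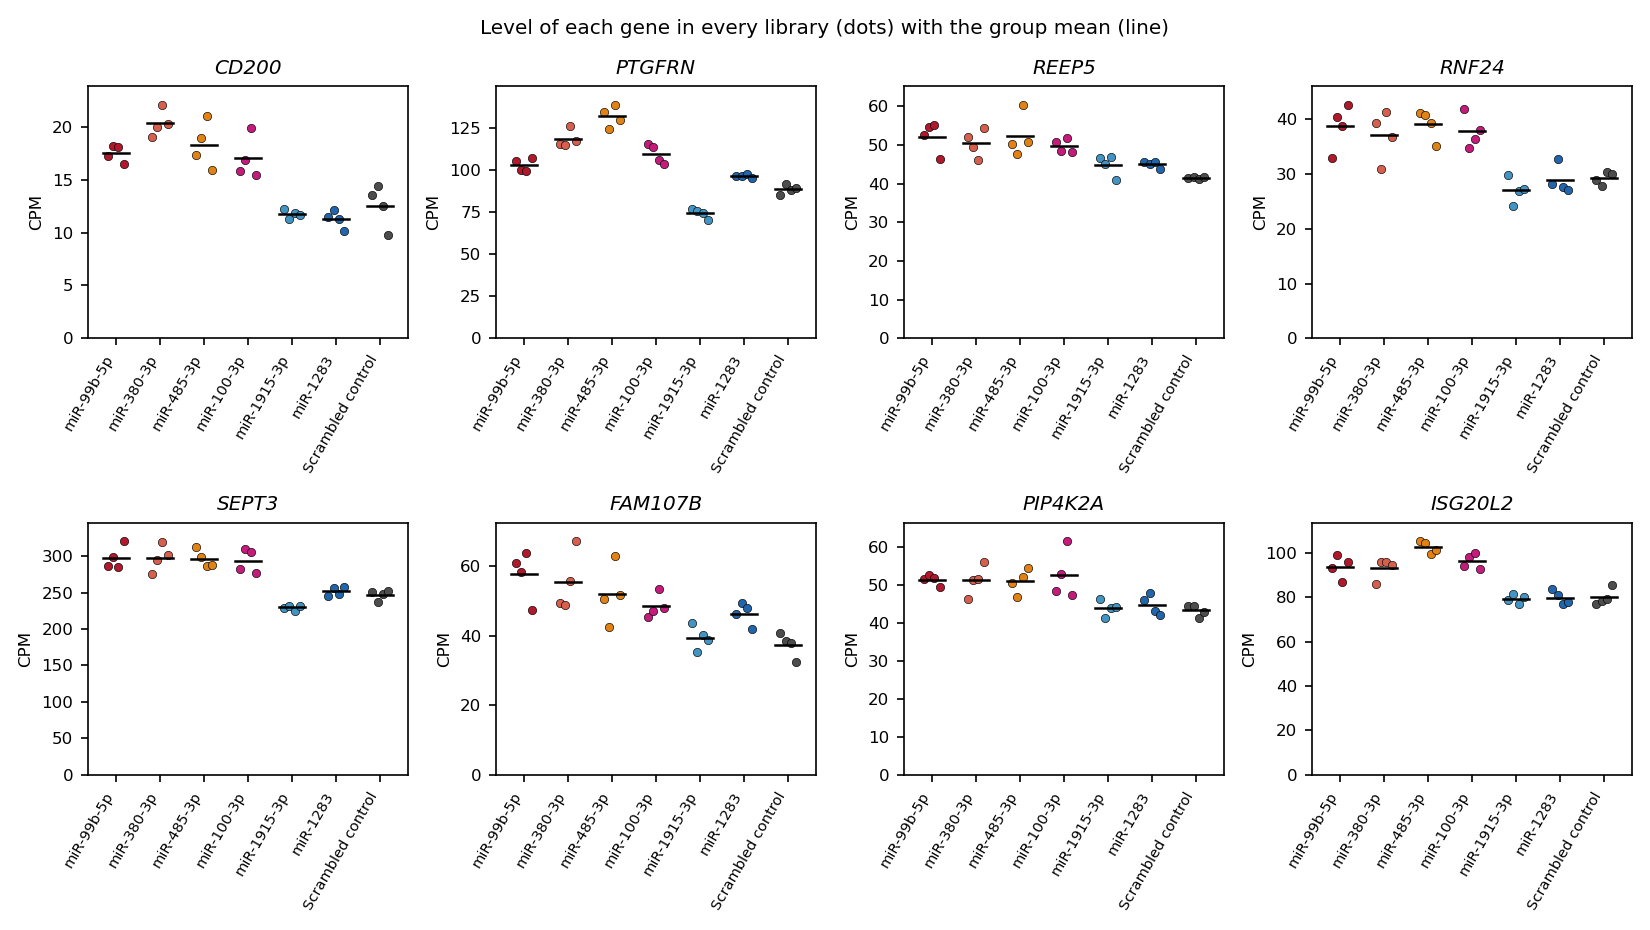
Levels of the 8 genes in CPM (vertical axis, from 0) in the 28 libraries by group, with 1 dot per library and a line at the mean of 4. For CD200, SEPT3, PTGFRN and ISG20L2, all 16 libraries of the 4 groups on the left lie above the 12 libraries of the other 3 groups.

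CD200 (ENSG00000091972, chr3:112332347-112362812, + strand; all gene positions are GRCh38 in GENCODE v29) codes for a surface glycoprotein that binds the CD200 receptor on myeloid cells and restrains them. It had the fewest counts of the 8 and, under miR-380-3p, the largest single change. CD200 measured 17.2, 18.2, 18.1 and 16.5 CPM under miR-99b-5p, 19.0, 20.0, 22.1 and 20.3 CPM under miR-380-3p, 17.3, 19.0, 21.0 and 15.9 CPM under miR-485-3p and 15.9, 16.9, 19.9 and 15.5 CPM under miR-100-3p. The other libraries read 12.3, 11.3, 11.8 and 11.7 CPM under miR-1915-3p, 11.5, 12.1, 11.3 and 10.2 CPM under miR-1283 and 13.6, 14.4, 12.5 and 9.73 CPM in the control. The lowest of the 16 libraries of the 4 mimics, at 15.5 CPM, was above the highest of the other 12, at 14.4 CPM. The log2 changes against the control were 0.48 ± 0.10 (SE) under miR-99b-5p, 0.70 ± 0.10 under miR-380-3p, 0.55 ± 0.11 under miR-485-3p and 0.44 ± 0.11 under miR-100-3p. Under miR-1915-3p and miR-1283 the control's 4 libraries, which spread over 9.73 to 14.4 CPM, enclosed all 8 mimic libraries. Neither change passed the test (-0.09 ± 0.11, 95% interval -0.31 to 0.13, adjusted p = 0.999 under miR-1915-3p; -0.15 ± 0.11, interval -0.37 to 0.06, adjusted p = 1 under miR-1283).

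PTGFRN (ENSG00000134247, chr1:116910057-116990358, + strand) codes for an immunoglobulin-family partner of the tetraspanins CD9 and CD81. PTGFRN was at 105, 99.6, 99.2 and 107 CPM under miR-99b-5p, 115, 114, 126 and 117 CPM under miR-380-3p, 134, 124, 139 and 129.7 CPM under miR-485-3p and 116, 113, 106.04 and 103 CPM under miR-100-3p. It was at 76.7, 75.6, 74.2 and 70.3 CPM under miR-1915-3p, 96.0, 96.2, 97.5 and 95.01 CPM under miR-1283 and 84.9, 91.4, 88.2 and 89.4 CPM in the control. The group means ran in the order miR-485-3p (132 ± 6.15 CPM, SD, n = 4), miR-380-3p (118 ± 5.34), miR-100-3p (109.5 ± 5.84), miR-99b-5p (103 ± 3.86), miR-1283 (96.2 ± 1.02), control (88.5 ± 2.72) and miR-1915-3p (74.2 ± 2.80). From miR-99b-5p downwards no neighbouring groups overlapped, while each of the 3 highest groups overlapped the next. The log2 changes against the control were 0.21 ± 0.05 under miR-99b-5p, 0.42 ± 0.05 under miR-380-3p, 0.57 ± 0.05 under miR-485-3p and 0.31 ± 0.05 under miR-100-3p.

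PTGFRN fell under miR-1915-3p, the only change of the 8 genes under a mimic outside the choice that passed the test. Its log2 change was -0.25 ± 0.05 (interval -0.36 to -0.14, edgeR quasi-likelihood test, adjusted p = 0.0268), with all 4 miR-1915-3p libraries below all 4 controls. The call was lost without miR-1915-3p replicate 2 (adjusted p = 0.0604), 3 (0.105) or 4 (0.188), and without control replicate 2 (0.139), 4 (0.0738) or 5 (0.106). It was also lost without both miR-1915-3p replicates 1 and 4 (0.453), with library size alone (0.0823), with no filter (0.367) and with only the 8 libraries compared (0.0773). Set against miR-1283, with no library that entered the choice of the genes, PTGFRN was also lower under miR-1915-3p, with a log2 difference of -0.37 ± 0.05 (adjusted p = 0.000271). That difference held in every alternative run (adjusted p of at most 0.0262). Its UTR of 3391 bases holds no match to the miR-1915-3p seed. Under miR-1283 the 4 libraries were above the 4 controls, but the change of 0.12 ± 0.05 did not pass the test (interval 0.01 to 0.23, adjusted p = 1).

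REEP5 (ENSG00000129625, chr5:112876379-112922539, - strand) codes for a protein that bends the membrane of tubular endoplasmic reticulum. REEP5 measured 52.6, 54.7, 55.1 and 46.3 CPM under miR-99b-5p, 52.0, 49.4, 46.2 and 54.5 CPM under miR-380-3p, 50.2, 47.5, 60.4 and 50.8 CPM under miR-485-3p and 50.9, 48.5, 51.9 and 48.1 CPM under miR-100-3p. Its other libraries read 46.6, 45.2, 46.9 and 41.0 CPM under miR-1915-3p, 45.6, 45.1, 45.5 and 43.7 CPM under miR-1283 and 41.5, 41.8, 41.1 and 41.8 CPM in the control. The control libraries lay within 1 CPM of each other, the tightest group of the 56 made by 8 genes and 7 groups. Of the 16 libraries of the 4 mimics, 14 were above all 12 others, since miR-99b-5p replicate 7 and miR-380-3p replicate 3 fell below the highest miR-1915-3p libraries. REEP5 was higher by 0.33 ± 0.07 (log2) under miR-99b-5p, 0.28 ± 0.07 under miR-380-3p, whose heptamer its UTR holds, 0.33 ± 0.07 under miR-485-3p and 0.26 ± 0.07 under miR-100-3p. Under miR-1283, whose heptamer its UTR also holds, all 4 libraries were above all 4 controls, with a change of 0.11 ± 0.07 (interval -0.03 to 0.26, adjusted p = 1). The change under miR-1915-3p was 0.11 ± 0.07 (interval -0.04 to 0.26, adjusted p = 0.916), with overlapping groups. REEP5 lost its edgeR call under at least 1 of the 4 mimics without any single control library (highest adjusted p of 0.0599 to 0.068). The same held without miR-100-3p replicate 1 or 3 (0.0566 and 0.0851) or miR-380-3p replicate 4 (0.0506).

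RNF24 (ENSG00000101236, chr20:3927309-4015582, - strand) codes for a RING-finger membrane protein that binds TRPC cation channels and holds them in the Golgi. RNF24 stood at 33.0, 40.5, 38.8 and 42.6 CPM under miR-99b-5p, 39.3, 30.9, 41.3 and 36.8 CPM under miR-380-3p, 41.1, 40.8, 39.2 and 35.2 CPM under miR-485-3p and 41.9, 34.7, 36.5 and 38.1 CPM under miR-100-3p. It stood at 29.8, 24.1, 26.95 and 27.2 CPM under miR-1915-3p, 28.2, 32.7, 27.7 and 27.02 CPM under miR-1283 and 28.8, 27.8, 30.4 and 30.0 CPM in the control. All but 1 of the 16 libraries of the 4 mimics were above the other 12, the exception being miR-380-3p replicate 2, and the control and both remaining mimics overlapped. Its log2 changes were close to each other, 0.40 ± 0.09 under miR-99b-5p, 0.34 ± 0.09 under miR-380-3p, 0.42 ± 0.09 under miR-485-3p and 0.37 ± 0.09 under miR-100-3p. RNF24 has the longest UTR of the 8, 6754 bases, with 3 heptamers for miR-1915-3p and 3 for miR-1283. Its change did not pass the test under miR-1915-3p (-0.12 ± 0.09, interval -0.31 to 0.08, adjusted p = 0.955) or miR-1283 (-0.02 ± 0.09, interval -0.21 to 0.17, adjusted p = 1).

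SEPT3 (ENSG00000100167, chr22:41969475-41998221, + strand) codes for a septin, a GTP-binding protein that assembles into filaments, and is known mainly from neurons. SEPT3 gave 286, 299, 285 and 320.4 CPM under miR-99b-5p, 276, 295, 319.7 and 301 CPM under miR-380-3p, 312, 299, 286 and 288 CPM under miR-485-3p and 283, 309.7, 306 and 277 CPM under miR-100-3p. It gave 229, 232, 225 and 232 CPM under miR-1915-3p, 246, 256, 247 and 258 CPM under miR-1283 and 251, 238, 248 and 252 CPM in the control. Every library of the 4 mimics was above every other library, and the 4 group means lay between 294 and 298 CPM. The log2 changes were nearly the same, 0.27 ± 0.05 under miR-99b-5p, 0.27 ± 0.05 under miR-380-3p, 0.26 ± 0.05 under miR-485-3p and 0.25 ± 0.05 under miR-100-3p. All 4 miR-1915-3p libraries were below all 4 controls and all 4 miR-1283 libraries. The fitted change was -0.11 ± 0.05 against the control (interval -0.22 to 0.00, edgeR adjusted p = 0.79) and -0.13 ± 0.05 against miR-1283 (interval -0.24 to -0.03, adjusted p = 0.703), so neither was called. Under miR-1283 the change was 0.03 ± 0.05 (interval -0.08 to 0.14, adjusted p = 1).

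FAM107B (ENSG00000065809, chr10:14518557-14774897, - strand) codes for a small protein first described as induced by heat shock in tumour cells. FAM107B measured 61.1, 58.4, 64.0 and 47.6 CPM under miR-99b-5p, 49.4, 48.9, 55.9 and 67.3 CPM under miR-380-3p, 50.5, 42.7, 63.0 and 51.7 CPM under miR-485-3p and 45.6, 47.2, 53.5 and 48.2 CPM under miR-100-3p. The others were 43.7, 35.3, 40.4 and 38.8 CPM under miR-1915-3p, 46.3, 49.3, 48.1 and 41.9 CPM under miR-1283 and 40.8, 38.5, 38.0 and 32.6 CPM in the control. It separated the groups least, with 10 of the 16 libraries of the 4 mimics above all 12 others, and neighbouring groups overlapped throughout the order. The log2 changes were 0.62 ± 0.11 under miR-99b-5p, 0.57 ± 0.11 under miR-380-3p, 0.48 ± 0.11 under miR-485-3p and, for miR-100-3p, whose heptamer stands in its UTR, 0.37 ± 0.11. The call under miR-100-3p (edgeR adjusted p = 0.048) was lost without any single library of miR-100-3p or of the control (0.0511 to 0.168). Under miR-1283 all 4 libraries were above all 4 controls, and the change of 0.31 ± 0.11 (interval 0.08 to 0.54) had an adjusted p of 1 in the edgeR fit. Under miR-1915-3p the change was 0.08 ± 0.11 (interval -0.16 to 0.31, adjusted p = 0.999).

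PIP4K2A (ENSG00000150867, chr10:22534849-22714555, - strand) codes for a kinase that turns phosphatidylinositol 5-phosphate into the bisphosphate. PIP4K2A ranged over 49.3 to 52.7 CPM under miR-99b-5p, 46.2 to 56.1 CPM under miR-380-3p, 46.9 to 54.5 CPM under miR-485-3p and 47.4 to 61.5 CPM under miR-100-3p. It ranged over 41.1 to 46.3 CPM under miR-1915-3p, 42.2 to 47.8 CPM under miR-1283 and 41.4 to 44.4 CPM in the control. The 4 mimics were above the control in all 16 libraries, and 13 of the 16 were also above miR-1915-3p and miR-1283. Its log2 changes lay between 0.24 ± 0.07 under miR-485-3p and 0.28 ± 0.07 under miR-100-3p. They were 0.02 (interval -0.13 to 0.17) under miR-1915-3p and 0.05 (interval -0.11 to 0.20) under miR-1283. PIP4K2A lost its edgeR call under at least 1 of the 4 mimics without any single control library (highest adjusted p of 0.0505 to 0.0909). The same held without replicate 3 or 4 of miR-99b-5p or miR-380-3p, 3 or 5 of miR-485-3p, or 2 or 3 of miR-100-3p (0.0503 to 0.147).

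ISG20L2 (ENSG00000143319, chr1:156721891-156728799, - strand) codes for a nuclear exonuclease that trims the precursor of ribosomal RNA. ISG20L2 ranged over 87.1 to 98.9 CPM under miR-99b-5p, 85.9 to 96.1 CPM under miR-380-3p, 99.8 to 105 CPM under miR-485-3p and 92.9 to 100.1 CPM under miR-100-3p. It ranged over 77.0 to 81.5 CPM under miR-1915-3p, 77.0 to 83.7 CPM under miR-1283 and 77.3 to 85.5 CPM in the control. The 16 libraries of the 4 mimics were all above the other 12, by a narrow margin between miR-380-3p replicate 1 and control replicate 5. The largest log2 change was 0.36 ± 0.05 under miR-485-3p and the smallest 0.22 ± 0.05 under miR-380-3p. Both remaining mimics had a log2 change of -0.01, with intervals of -0.12 to 0.10 for miR-1915-3p and -0.12 to 0.11 for miR-1283. Its counts were not whole in 4 libraries.

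**Figure D2:**
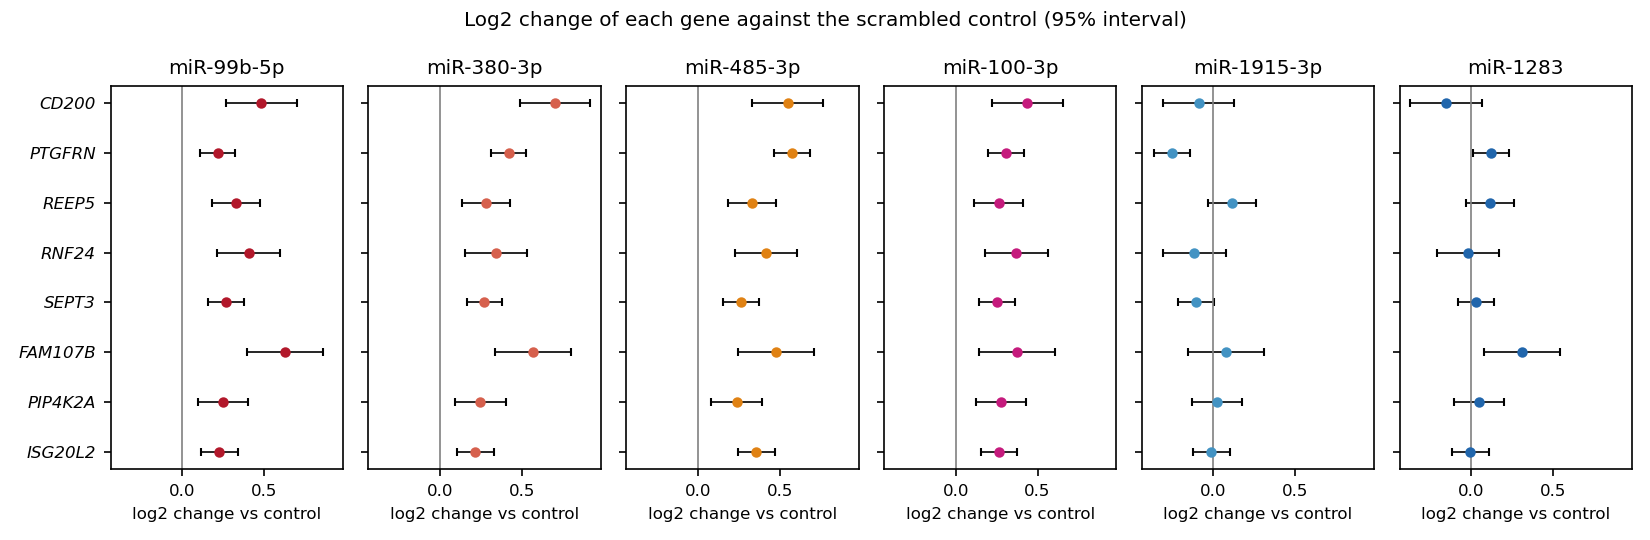
Log2 change against the scrambled control (horizontal axis) with its 95% interval for the 8 genes under each of 6 mimics, from 1 fit over 28 libraries. The changes in the 4 panels on the left chose the genes, and under miR-1915-3p the interval of PTGFRN lies below 0.

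Under both mimics outside the choice the changes of the 8 genes lay on either side of 0. Under miR-1915-3p their changes ran from -0.25 (PTGFRN) to 0.11 (REEP5), with a median of -0.05 against 0.00 over all tested genes. None of the 8 had all 4 miR-1915-3p libraries above all 4 controls (3.06% of tested genes did), and PTGFRN and SEPT3 had all 4 below (3.57%). PTGFRN was the 1 gene of 8 called, when 0.246% of the tested genes were. Under miR-1283 the changes ran from -0.15 (CD200) to 0.31 (FAM107B), with a median of 0.04 against -0.01. FAM107B, REEP5 and PTGFRN had all 4 miR-1283 libraries above all 4 controls (1.43% of tested genes did). The 4 controls also entered the choice, which favours genes low in them, so the contrast with that share is no separate result. With edgeR 0 of 8 genes were called under miR-1283 (0.0199% of tested genes, 3 in number, were), FAM107B and PTGFRN had an unadjusted p under 0.05 (3.01% of tested genes), and DESeq2 and limma-voom also called 0. Between miR-1915-3p and miR-1283, PTGFRN alone was called, beside 0.252% of the tested genes.

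Set against the mean of miR-1915-3p and miR-1283 in place of the control, the 4 mimics together had log2 differences from 0.19 ± 0.04 in REEP5 and 0.22 ± 0.05 in PIP4K2A to 0.45 ± 0.03 in PTGFRN, 0.45 ± 0.06 in RNF24 and 0.67 ± 0.07 in CD200. Those of ISG20L2, SEPT3 and FAM107B were 0.28 ± 0.03, 0.30 ± 0.03 and 0.32 ± 0.07. These values use the libraries that chose the genes and are a description. Over all tested genes, 33 (0.219%) had all 16 libraries of the 4 mimics above all 4 controls, and the 8 genes are among them.

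The 4 mimics are set beside each other as a description with no test, since their values chose the genes. The log2 change of PTGFRN ran from 0.21 under miR-99b-5p to 0.57 under miR-485-3p, that of CD200 from 0.44 under miR-100-3p to 0.70 under miR-380-3p and that of FAM107B from 0.37 under miR-100-3p to 0.62 under miR-99b-5p. SEPT3, at 0.25 to 0.27, and PIP4K2A, at 0.24 to 0.28, varied least between the 4.

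Among the 11542 genes whose log2 CPM averaged at least 2, those whose 6 log2 changes lay closest to the mean of the 8 were KLHL20, CCSER1, FRMD4A, TMEM127, LRCH1 and YES1. The measure is the root mean square distance over the 6 mimics, on the log2 scale. KLHL20, an adaptor of a ubiquitin ligase, lay nearest of all at 0.0365, ahead of RNF24 at 0.0547. CCSER1 lay at 0.062, FRMD4A at 0.0625, TMEM127 at 0.0656, LRCH1 at 0.0745 and the kinase YES1 at 0.0861. Within the 8, SEPT3 (0.0878), REEP5 (0.0879), ISG20L2 (0.0928) and PIP4K2A (0.101) ranked from 9 to 21. PTGFRN (0.127) ranked 103, FAM107B (0.182) 545 and CD200 (0.184) 579. The 8 genes are thus not the 8 nearest to their own mean.

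The relatives of the 8 genes, 85 genes of their families and pathways, moved in both directions. Of 68 tested relatives, 9 were called higher and 5 lower under miR-99b-5p (20.6%, beside 16.6% of all tested genes), 5 and 5 under miR-380-3p (14.7% beside 10.9%), 9 and 7 under miR-485-3p (23.5% beside 21.1%) and 0 and 1 under miR-100-3p (1.47% beside 5.96%). Under miR-1915-3p and miR-1283 edgeR called 0 of 68, as did DESeq2 and limma-voom, and 2 of 68 had an unadjusted p under 0.05 under each. The median log2 change of the 68 was 0.09 under miR-485-3p and 0.01 to 0.04 under the other 5 mimics.

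Of the 8 tested septins beside SEPT3, edgeR called 1 higher and 1 lower under miR-99b-5p (25%, beside 16.6% of all tested genes). It called 0 and 1 under miR-380-3p (12.5% beside 10.9%) and 0 and 3 under miR-485-3p (37.5% beside 21.1%). Under miR-100-3p it called 0 (beside 5.96%), and 2 had an unadjusted p under 0.05. SEPT6 rose under miR-99b-5p (log2 0.41 ± 0.06, adjusted p = 3.44e-05, with no alternative run), where SEPT3 rose by 0.27 ± 0.05. SEPT2, which joins the core septin filament, fell under miR-485-3p, with 200.1 ± 17.96 CPM against 341 ± 6.90 CPM in the control (log2 -0.77 ± 0.05, adjusted p = 4.09e-11). SEPT8 fell under 3 of the mimics that raised SEPT3, with 80.7 ± 3.23 CPM under miR-99b-5p, 93.6 ± 3.48 CPM under miR-380-3p and 94.3 ± 3.00 CPM under miR-485-3p, against 109 ± 1.15 CPM in the control. Its log2 changes were -0.43 ± 0.05 (adjusted p = 1.61e-06), -0.22 ± 0.05 (0.00756) and -0.21 ± 0.05 (0.00613) in that order, and the call under miR-380-3p was lost with no filter (0.0855).

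Of 14 proteins that shape the endoplasmic reticulum, as REEP5 does, edgeR called 2 higher and 1 lower under miR-99b-5p (21.4%, beside 16.6% of all tested genes). Under miR-380-3p it called 4 and 1 (35.7% beside 10.9%), and under miR-485-3p 6 and 1 (50% beside 21.1%). Under miR-100-3p it called 0 (beside 5.96%), and 1 had an unadjusted p under 0.05. RTN3, a reticulon, measured 281 ± 8.00 CPM under miR-99b-5p, 275 ± 20.4 CPM under miR-380-3p and 294 ± 19.0 CPM under miR-485-3p, against 241 ± 18.2 CPM in the control. RTN3 rose by 0.29 ± 0.06 under miR-485-3p (adjusted p = 0.00152), by 0.22 ± 0.06 under miR-99b-5p (0.0146) and by 0.19 ± 0.06 under miR-380-3p (0.0489). Its call under miR-99b-5p was lost without control replicate 5 (adjusted p = 0.0713), and that under miR-380-3p without any of miR-380-3p replicates 1, 2 and 3 or control replicates 1 and 5 (0.0966 to 0.194) and under several other scalings and fits (up to 0.213 with no filter). ATL1, the atlastin that fuses tubules, rose under the same 3 mimics, by 0.28 ± 0.08, 0.30 ± 0.08 and 0.25 ± 0.08, with adjusted p of 0.0169, 0.0151 and 0.0283. All 3 calls of ATL1 were lost without control replicate 2 or 4, 1 without miR-380-3p replicate 3 and 1 without miR-485-3p replicate 3 or 5 (adjusted p from 0.0525 to 0.157). All 3 were also lost with library size alone (0.0509 to 0.0543) and with no filter (0.0553 to 0.165).

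Of the 9 tested phosphoinositide enzymes, edgeR called 2 higher and 1 lower under miR-99b-5p (33.3%, beside 16.6% of all tested genes). It called 0 under miR-380-3p (beside 10.9%), and 1 had an unadjusted p under 0.05. Under miR-485-3p 2 were called higher (22.2% beside 21.1%), and under miR-100-3p 1 lower (11.1% beside 5.96%). PIP4K2B, which carries out the same reaction as PIP4K2A, fell under miR-99b-5p, with 74.0 ± 2.32 CPM against 89.9 ± 2.83 CPM in the control (log2 -0.28 ± 0.06, adjusted p = 0.00246). TMEM55A, now PIP4P2, which removes a phosphate from the product, rose under miR-485-3p, with 20.9 ± 3.44 CPM against 13.5 ± 1.03 CPM in the control (log2 0.63 ± 0.12, adjusted p = 0.000252). It fell under miR-100-3p, with 9.83 ± 0.700 CPM against the same control (log2 -0.46 ± 0.12, adjusted p = 0.0215), a call lost without miR-100-3p replicate 4 or control replicate 2 or 5 (adjusted p of at most 0.0701). TMEM55A also rose under miR-99b-5p, to 17.3 ± 2.08 CPM against 13.5 ± 1.03 CPM in the control (log2 0.36 ± 0.12, adjusted p = 0.0335). That call was lost without miR-99b-5p replicate 3 or 4 or control replicate 1 or 4 (0.0769 to 0.111), and with library size alone, no filter or the GC slope (0.0536 to 0.0566).

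Of the EWI proteins and tetraspanins, CD9, the tetraspanin that PTGFRN binds, fell under miR-99b-5p to 37.7 ± 3.24 CPM, against 81.8 ± 2.84 CPM in the control (log2 -1.12 ± 0.07, adjusted p = 2.29e-11). IGSF3, an EWI protein, rose under the same mimic (log2 0.41 ± 0.09, edgeR adjusted p = 0.00201, with no alternative run). CD101, an immunoglobulin-family relative of PTGFRN at a low level, rose to 6.17 ± 0.943 CPM under miR-485-3p, against 3.40 ± 0.486 CPM in the control (log2 0.86 ± 0.18, adjusted p = 0.000951). CD101 also rose under miR-380-3p, to 5.30 ± 0.666 CPM (log2 0.64 ± 0.18, adjusted p = 0.0201), a call lost without miR-380-3p replicate 3 or control replicate 2 or 5 (0.0667 to 0.0911). Of 5 tested surface ligands that immune receptors read, as CD200 is read, 1 rose under miR-99b-5p (20%, beside 16.6% of all tested genes). It was CD47 (0.26 ± 0.08, adjusted p = 0.0336, with no alternative run). Under miR-380-3p 1 fell (20% beside 10.9%), PVR (-0.28 ± 0.08, adjusted p = 0.0158). Under miR-485-3p 1 fell (20% beside 21.1%), LGALS9 (-0.77 ± 0.25, adjusted p = 0.0254). LGALS9 was at a low level, 1.02 ± 0.240 CPM under miR-485-3p against 1.75 ± 0.350 CPM in the control. PVR lost its call without miR-380-3p replicate 3 or 4 (adjusted p = 0.0749 and 0.0759), and LGALS9 without miR-485-3p replicate 3 or 5 or control replicate 4 (0.0566 to 0.10). Both were also lost with no filter (0.0927 for PVR and 0.0718 for LGALS9) and with only the groups compared (0.0581 and 0.0564). The CD200 receptor CD200R1 and FAM107A, the relative of FAM107B, did not pass the filter on low counts.

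Among 7 tested RING ligases and TRPC channels, edgeR called 1 higher under miR-99b-5p (14.3%, beside 16.6% of all tested genes) and 2 lower under miR-485-3p (28.6% beside 21.1%). RNF149 rose under miR-99b-5p (log2 0.60 ± 0.11, adjusted p = 0.000361). Under miR-485-3p RNF13 fell (-0.51 ± 0.10, adjusted p = 0.000313), as did RNF122 (-0.61 ± 0.14, adjusted p = 0.00191, with no alternative run). Of 17 genes of ribosomal RNA processing and related exonucleases, the pathway of ISG20L2, edgeR called 0 under miR-485-3p (beside 21.1% of all tested genes). ISG20L2 was highest under that mimic, and 1 of the 17 had an unadjusted p under 0.05 there. NOL9, the kinase that acts on the same precursor, fell under miR-99b-5p (log2 -0.55 ± 0.07, adjusted p = 3.92e-06). ERI1, an exonuclease that trims ribosomal RNA, fell under miR-380-3p (-0.59 ± 0.11, adjusted p = 0.000817) and rose under miR-99b-5p (0.38 ± 0.11, adjusted p = 0.0168). The call under miR-99b-5p was lost without miR-99b-5p replicate 2 or 4 or control replicate 5 (0.0561 to 0.06).

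**Figure D3:**
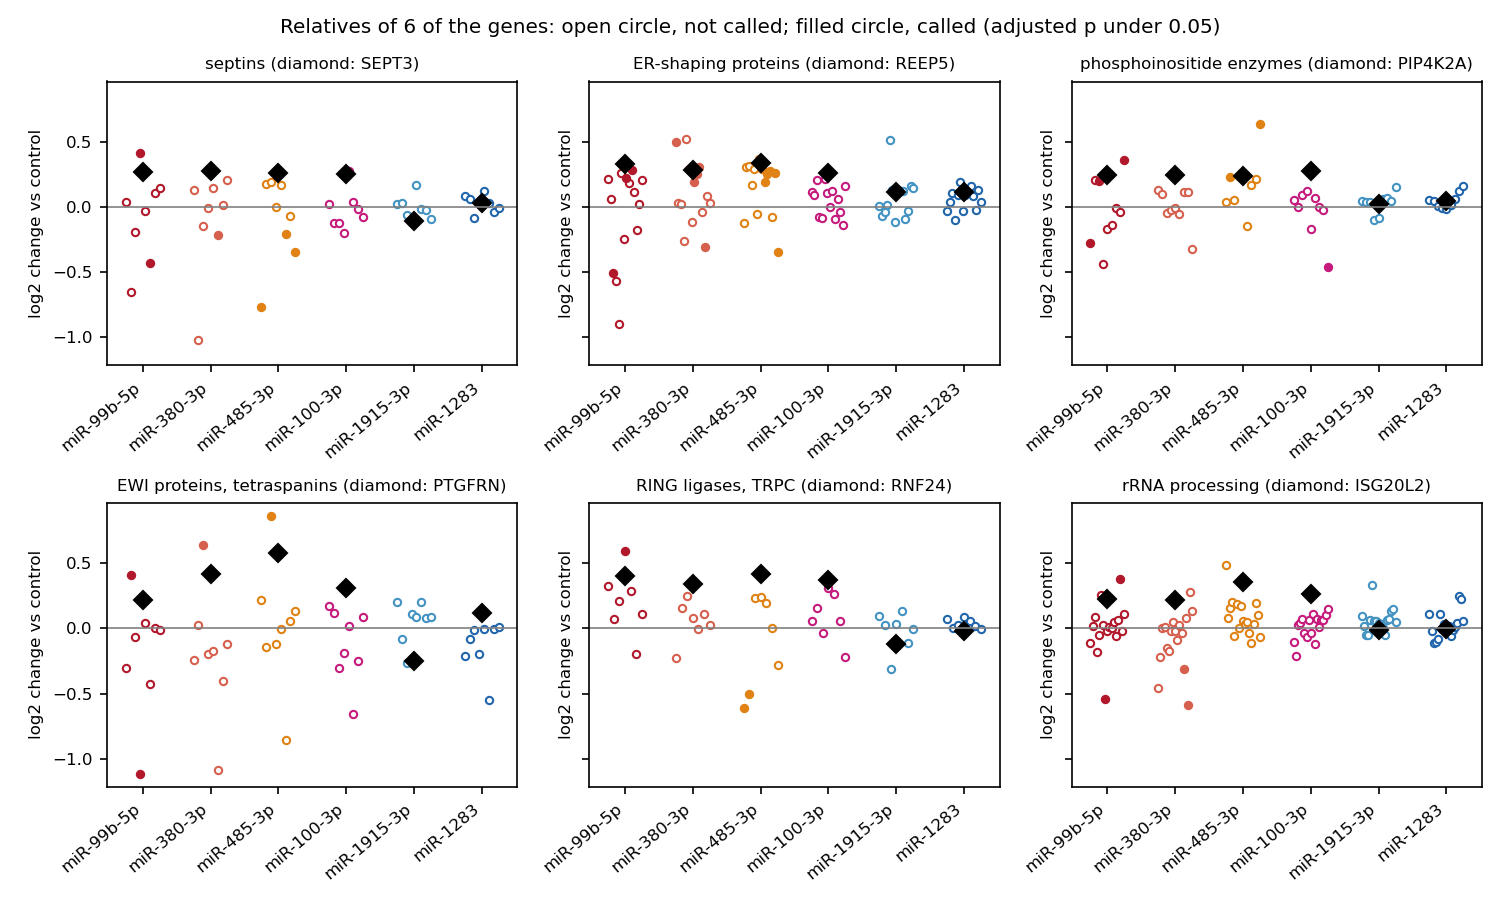
Log2 change against the scrambled control (vertical axis) of the tested relatives of 6 of the genes under each mimic (circles, filled where called), with the gene itself as a black diamond. Under the 4 mimics on the left the diamonds lie above 0, as the choice fixes, while the circles lie on both sides of 0.

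The 8 genes were also compared for features that the choice did not use. Their 3′ UTRs had a median of 2520 bases, from 1458 in ISG20L2 to 6754 in RNF24, beside 1677.5 bases over tested genes, and their transcripts a median GC content of 47.0%, beside 48.3%. Heptamers for 8 families of microRNAs that cells commonly hold were counted in the same UTRs, as a description. The match GCACTTT to the miR-17-5p seed, which its family shares, stood in 5 of 8 genes, RNF24, REEP5, PTGFRN, ISG20L2 and PIP4K2A. It stood in 26.7% of tested genes, and in 39.96% of the 7105 tested genes with a UTR at least as long as the shortest of the 8. Matches to miR-181 stood in 4 of the 8 (34.8% of those 7105 genes), to miR-30 in 3 (28.9%) and to miR-9 and miR-26 in 2 each (24.9% and 22.2%), while those to let-7 (19.2%), miR-19 (25.4%) and miR-25 and 92 (21.1%) were in none. No family matched all 8 genes, and the levels of these microRNAs were not measured here.

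RefSeq promoters on GRCh38.p14, 250 bases before to 50 after the start, were found for 7 of the 8 genes. Those of CD200 and PIP4K2A are shown as the only one of the 7 with TATAAA, in capitals, and the one of highest GC content, with GGGCGG or its complement CCGCCC in capitals.
CD200 promoter, chr3:112332906-112333205 (+): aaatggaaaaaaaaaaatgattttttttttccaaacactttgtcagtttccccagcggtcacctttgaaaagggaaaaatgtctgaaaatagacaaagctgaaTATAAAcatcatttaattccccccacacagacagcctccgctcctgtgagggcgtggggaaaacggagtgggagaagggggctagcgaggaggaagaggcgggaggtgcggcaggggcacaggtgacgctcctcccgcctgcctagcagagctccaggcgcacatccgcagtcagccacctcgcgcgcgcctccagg
PIP4K2A promoter, chr10:22714529-22714828 (-): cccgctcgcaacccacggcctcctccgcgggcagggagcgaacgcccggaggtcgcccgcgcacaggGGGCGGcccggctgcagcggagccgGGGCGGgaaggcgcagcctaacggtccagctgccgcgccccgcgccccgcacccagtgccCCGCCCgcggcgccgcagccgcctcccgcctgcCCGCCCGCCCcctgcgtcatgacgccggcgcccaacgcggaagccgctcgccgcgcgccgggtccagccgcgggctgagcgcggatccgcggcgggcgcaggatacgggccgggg
Both strands were searched. Shares and median GC of the table are over all its promoters, not limited to tested genes, so they are no matched background for the 7. GGGCGG was in 5 of 7 promoters, RNF24, REEP5, PTGFRN, ISG20L2 and PIP4K2A, and in 45.0% of the 35116 promoters of the table. TATAAA was in CD200 alone (11.5% of the table) and TTTCGCGC in FAM107B alone (0.515%). None of the 7 held CACGTG (7.26%), TGACGTCA (1.85%), CCAAT (34.6%) or the NRF1 palindrome (1.24%). The PIP4K2A promoter had 82.7% GC, that of FAM107B 48.3%, and the median was 64.0% over the 7 and 58.7% over the table. No motif of those searched was in all 7 promoters.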

How the data were processed

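Per the submitters' processing notes, reads were aligned to hg19 with STAR, and its version is not given in the sources used here. The authors deposited a gene table of expected counts, 10.2% of them fractional, and the counting tool and annotation are not given in the sources used here. The 30887 rows (951 with no count) and 28 columns were all mapped to libraries by their names. Libraries held 10.99 M to 23.3 M expected counts and the spread between 4 libraries per group sets the precision.

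Expected counts were rounded. The filterByExpr function of edgeR 4.0.16 (R 4.3.3) kept 15058 genes, and TMM scaled the libraries. A single quasi-likelihood fit over the 28 libraries (21 residual degrees of freedom, biological coefficient of variation 12.2%) gave log2 changes with SE and 95% intervals. Tests were two-sided, with p-values adjusted by Benjamini-Hochberg across the 15058 genes. Comparisons that chose the genes are described. Their adjusted p-values and counts of calls only show how near the threshold the choice lay, and are no separate test. The genes, gene lists, markers and tests were chosen with earlier results of these data known.

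Beyond the 8 genes, those named were the 6 with the nearest pattern, those nearest to the threshold on either side (3 inside and 2 outside), and up to 2 relatives per list called under most mimics. PTENP1, TRIB1 and NEFM were named after their values were seen, as were further genes in small counts. A few genes that the rules for markers and threshold neighbours would name are not reported here. UTRs come from GENCODE v29 (GRCh38), the longest per gene and at least 50 bases, and the authors' hg19 coordinates were not used. Alternatives were DESeq2 1.42.0, limma-voom (limma 3.58.1), other scalings and filters, covariates and leaving out libraries. The fit was tested on simulated counts with 200 changed genes. No 2 libraries of a group agreed within sampling noise.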

Additional observations from a re-analysis of the deposited data

Results flagged for a closer look

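Of 56 sets of 4 libraries (8 genes in 7 groups), 1 had a library far from the other 3. ISG20L2 was at 85.9 CPM in miR-380-3p replicate 1, while the other 3 miR-380-3p libraries lay between 94.5 and 96.1 CPM. The measure used singles out about 1 set in 20 by chance.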

How the results depend on the processing

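Of 1343 values recomputed under other settings, 1239 were scored as kept, and of 1096 recomputed without 1 library, 953 were. A single value was kept if its direction held and it kept its side of the threshold or stayed within the spread. Counts of calls were scored as kept within a fixed ratio of the main count, so a kept count can still differ from it. The cause of the changes was not tested.

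Under miR-1915-3p the 1 of 8 genes called, PTGFRN, became 0 with library size alone (adjusted p = 0.0823), no filter (0.367), only the 8 libraries compared (0.0773) and without miR-1915-3p replicates 1 and 4, whose titles carry an unexplained suffix (0.453). Leaving out 1 library gave 0 to 1. The planned test for differences among the 4 mimics, and its alternatives, were left out because those values chose the genes.

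The count of the 8 called higher under all 4 mimics was 8 with DESeq2, median-of-ratios scaling, a mean CPM of at least 5, the GC slope and without the 2 libraries of extreme GC slope (chosen after seeing the data). It was 7 with limma-voom, the replicate block and the library code, where FAM107B under miR-100-3p was lost (adjusted p = 0.0561, 0.0823 and 0.0564). It was 6 with upper-quartile scaling (without FAM107B, 0.0524, and PIP4K2A, 0.0592) and with library size alone (without FAM107B, 0.0768, and REEP5, 0.0665), and 3 with no filter or only the groups compared. It was 4 to 8 without 1 library, the lowest without miR-100-3p replicate 3 or control replicate 2 or 5, and 5 without miR-380-3p replicate 3, miR-100-3p replicate 1 or control replicate 1 or 4. Over all genes the 11 became 17 with DESeq2, 5 with no filter, 41 with the GC slope, 6 with only the groups compared and 6 to 16 without 1 library.

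Genes called under miR-1915-3p (37) became 83 with DESeq2, 181 with the GC slope, 17 without the suffixed libraries and 20 to 36 without 1 library. Under miR-1283 (3) they became 5 with DESeq2, 1 with no filter, 0 with only the groups compared and 0 to 2 without 1 library. Between these mimics (38) they became 84 with DESeq2, 64 with the block, 153 with the GC slope, 18 with only the groups compared, 19 without the suffixed libraries and 24 to 38 without 1 library. Under miR-100-3p (897) they became 564 with no filter, 1764 with the GC slope, 491 with only the groups compared and 551 to 900 without 1 library, under miR-380-3p (1634) 2778 with the GC slope and 1056 to 1755 without 1 library, and under miR-485-3p (3176) 4878 with the GC slope and 2000 with only the groups compared.

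Relatives called under miR-100-3p (1) became 2 with DESeq2, library size alone, a mean CPM of at least 5 or without the libraries of extreme GC slope, 8 with the GC slope and 0 to 2 without 1 library. Under miR-380-3p (10) they became 4 with no filter, 17 with the GC slope and 5 to 10 without 1 library, under miR-485-3p (16) 10, 29 and, with only the groups compared, 9, and 10 to 17 without 1 library. Under miR-99b-5p (14) they became 27 with the GC slope, and under miR-1915-3p 0 to 1 without 1 library.

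Log2 changes that turned sign were all close to 0 and not called. ISG20L2 under miR-1283 became 0.0103 with DESeq2, 0.0112 with median-of-ratios scaling, 0.00227 with library size alone, 0.0166 with no filter, 0.00425 with the block and 0.00317 with the library code. RNF24 there became 0.00307 with no filter, and PIP4K2A under miR-1915-3p -0.0353 without the suffixed libraries. REEP5 between miR-1915-3p and miR-1283 became 0.00324 with a mean CPM of at least 5, 0.00953 with the GC slope and 0.00985 without the suffixed libraries. Without 1 library, log2 changes between miR-1915-3p and miR-1283 ran over -0.0122 to 0.10 (CD200), -0.0482 to 0.0152 (ISG20L2), -0.0825 to 0.00624 (PIP4K2A) and -0.0452 to 0.0391 (REEP5). Against the control they ran over -0.0305 to 0.0193 (ISG20L2) and -0.00592 to 0.0499 (PIP4K2A) under miR-1915-3p, and -0.0283 to 0.0315 (ISG20L2) and -0.0838 to 0.0373 (RNF24) under miR-1283.

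The main fit did not use the replicate numbers to pair the libraries, since not every same-numbered pair correlated above 0.1. That rule is strict and does not settle whether libraries of the same number belong together, which was not tested. Results with the replicate number as a block are among the alternatives above. The mean correlation of the deviations of 67 same-numbered pairs was 0.052, the lowest -0.338, and 8 of 28 libraries matched best with their own number in another group. Of the same-numbered pairs 27 were over 0.1, as were 60 of 269 pairs of different number (mean -0.0128).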
